A study of Saccharomyces cerevisiae with 4 samples.

Results

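The 10 genes of sphingolipid synthesis and fatty acid elongation described here were followed in budding yeast (Saccharomyces cerevisiae): LCB1 (YMR296C), LCB2 (YDR062W), SUR2 (YDR297W), LAC1 (YKL008C), LAG1 (YHL003C), SUR1 (YPL057C), CSG2 (YBR036C), ELO1 (YJL196C), FEN1 (YCR034W) and SUR4 (YLR372W). These 10 of the 5500 listed reading frames were taken by name. They were put forward with the ratios of all 4 arrays already known, so their ratios and calls between the strains are a description and support nothing by themselves. Of the 10, 8 had a value on every array and entered the test, SUR2 had values on 2 arrays and LAG1 on none.

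Each of the 4 arrays compared polyadenylated RNA of a strain labelled bre1 with that of wild type, and carried 1 log ratio per reading frame. The bre1 RNA was labelled with Cy3 on arrays 1 and 3 and with Cy5 on arrays 2 and 4. Bre1 is a ubiquitin ligase that acts with Rad6 on histone H2B. The labels give neither the kind of mutation, nor the growth conditions, nor whether each array had its own culture. The p-values therefore cover the array-to-array spread alone, and this may be technical. The values were read as log2 of bre1 over wild type. That direction is probable but unproven, and if it is the reverse, each gene given as lower would be higher. BRE1 had log2 ratios of -1.65 and -3.17 on arrays 1 and 3 and no value on arrays 2 and 4.

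Sphingolipids of yeast are built in the endoplasmic reticulum and the Golgi. Serine palmitoyltransferase joins serine to palmitoyl-CoA to give a long-chain base, ceramide synthase adds a very long fatty acid to that base, and the Golgi enzymes attach inositol phosphate and mannose. The elongases supply the very long fatty acid, so both branches meet at ceramide. The finished lipids lie mostly in the plasma membrane, and yeast cannot live without the first enzyme of the pathway.

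Among the 8 tested genes the lowest mean ratios in bre1 were those of SUR1 (mannosylation), LAC1 (ceramide) and ELO1 (elongation). LCB1 of the first enzyme and CSG2, the regulator of mannosylation, stayed near 0 or above it. These are single genes and not whole steps. LCB2, also of the first enzyme, had a mean below 0, and LIP1, also of ceramide synthase, had one of 0.62. SUR1 was 2.27-fold lower, LAC1 2.04-fold and ELO1 2.03-fold. FEN1, SUR4 and LCB2 had means 1.79-fold, 1.76-fold and 1.51-fold below wild type and did not pass the threshold. LCB1 and CSG2 had mean log2 ratios of -0.05 and 0.30. Of the 8 tested genes, 3 had an adjusted p below the threshold of 0.05 when limma compared the mean with 0 (Benjamini-Hochberg adjustment over 3840 genes). All 3 were lower. Across the whole array 4.79% of tested genes were called lower, 5.89% higher and 10.7% in either direction. The median of the 8 mean log2 ratios was -0.83, beside 0.02 over all 3840 genes. RNA pooled from a culture cannot tell fewer cells that express a gene from less RNA per cell.

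**Figure D1:**
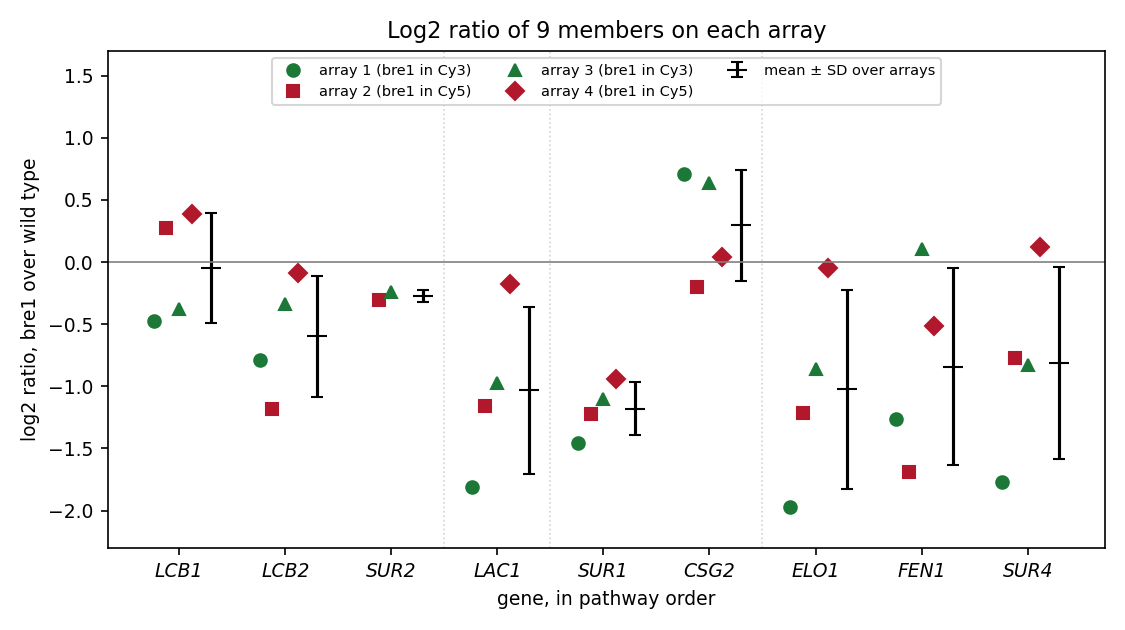
Log2 ratio of bre1 over wild type (y axis) for 9 genes in pathway order (x axis); LAG1 had no value. Each coloured point is 1 array, green with bre1 in Cy3 and red with bre1 in Cy5, and black bars give the mean ± SD over the arrays with a value. SUR1 lies between -1.45 and -0.95 on the 4 arrays, while LAC1, ELO1 and SUR4 run from between -1.97 and -1.77 on array 1 to between -0.18 and 0.12 on array 4.

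The calls rested on which arrays entered. Leaving out 1 array leaves the dye orientations unequal, so the dye difference enters those means. Its part in the calls was not tested. Without array 1 SUR1 alone of the 8 passed, beside 1.41% of all tested genes. Without array 2 none of the 8 and no gene of the table passed in limma, and 4 of the 8 had an unadjusted p under 0.05. Without array 3 SUR1 and FEN1 passed, beside 4.87% of all tested genes. Without array 4 all passed but LCB1 and CSG2, 6 in number, and the share of all tested genes rose to 17.6% as well.

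Serine palmitoyltransferase, which commits serine to the pathway, is a heterodimer of Lcb1 and Lcb2, and Lcb2 carries the cofactor pyridoxal phosphate. LCB2 had log2 ratios of -0.79, -1.18, -0.34 and -0.09 on arrays 1 to 4. It was below 0 on each array, lowest on array 2 and closest to 0 on array 4. Its mean was -0.60 ± 0.48 (SD, n = 4, limma adjusted p = 0.0839), with a 95% interval from -1.05 to -0.15 that is not adjusted for the number of genes. LCB1 had log2 ratios of -0.48, 0.28, -0.38 and 0.38. It was below 0 on the 2 arrays with bre1 in Cy3 and above 0 on the 2 with bre1 in Cy5. Its mean was -0.05 ± 0.44 (SD, n = 4, limma adjusted p = 0.882), with an interval from -0.48 to 0.38.

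The mean difference between the ratios of the 2 subunit genes was smaller than its SD over the arrays. LCB1 minus LCB2 was 0.31, 1.46, -0.04 and 0.47 on the 4 arrays, with a mean of 0.55 ± 0.64 (SD, n = 4). An exact two-sided sign-flip permutation test gave p = 0.25 (adjusted p = 0.417 over 5 pairs). With 4 arrays this test cannot give less than 0.125, so it cannot decide whether the 2 genes differ. ORM2, whose product restrains the enzyme, was the other gene of this step in the test, with a mean log2 ratio of -0.02 ± 0.24 (SD, n = 4). Its homologue ORM1 had no value, and the gene of Tsc3, a small activating subunit, was not among the listed reading frames.

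SUR2 encodes the hydroxylase that turns dihydrosphingosine into phytosphingosine. It had log2 ratios of -0.31 on array 2 and -0.24 on array 3 and no value on the others, so it was not tested. Those values were at the 24.2 and 32.3 percentiles of the genes on their arrays, above SUR1 and LAC1 on the same arrays.

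Ceramide synthase contains Lac1 or Lag1, which are homologues that can stand in for each other, together with the small subunit Lip1. LAC1 had log2 ratios of -1.81, -1.16, -0.98 and -0.18. The first 3 arrays placed it at the 0.804, 2.58 and 3.23 percentiles, and array 4 at the 28.3 percentile. Its mean was -1.03 ± 0.67 (SD, n = 4, limma adjusted p = 0.0338), and it was called lower. This call was lost without array 1 (adjusted p = 0.111), without array 2 (0.137) and without array 3 (0.0766). LAG1 gave no value on any array, so the homologues could not be compared.

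LIP1 did not follow LAC1. It is named here after its values were seen. Its log2 ratios were 0.93, 0.95, 0.11 and 0.51, above 0 on each array, with a mean of 0.62 ± 0.40 (SD, n = 4, limma adjusted p = 0.0584). The catalytic gene LAC1 was lower than LIP1 on all 4 arrays. SCS7, which encodes the hydroxylase of the very long fatty acid in ceramide, was 1.93-fold lower. Its log2 ratios were -1.46, -1.33, -0.31 and -0.69, with a mean of -0.95 ± 0.54 (SD, n = 4, limma adjusted p = 0.0305). TSC10, the reductase gene that precedes SUR2 in the pathway, had a mean of -0.37 ± 0.45 (SD, n = 4).

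In the Golgi, Aur1 with Kei1 adds inositol phosphate to ceramide, Sur1 or its homologue Csh1 adds mannose with the regulatory partner Csg2, and Ipt1 adds the last inositol phosphate. SUR1 had log2 ratios of -1.45, -1.22, -1.10 and -0.95. These 4 values are close together and all far below 0, on both dye orientations. The mean was -1.18 ± 0.21 (SD, n = 4, limma adjusted p = 0.00711), the smallest p of the 8 genes, and its mean ranked 19 from the lowest of 3840. SUR1 lay between the 1.66 and 2.29 percentiles on each array. Its SD was larger than that of only 23.2% of tested genes, while the SDs of LAC1, ELO1, FEN1 and SUR4 exceeded those of 93.5% to 97.3% of genes. Its call was kept without array 1, 3 or 4, and without array 2 its mean was -1.17 with an adjusted p of 0.0525.

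CSG2 ran otherwise. Its log2 ratios were 0.71, -0.20, 0.64 and 0.04, higher on the arrays with bre1 in Cy3 than on those with bre1 in Cy5. The mean was 0.30 ± 0.45 (SD, n = 4, limma adjusted p = 0.332), with an interval from -0.14 to 0.73. SUR1 was lower than its partner gene CSG2 on every array, with differences (SUR1 minus CSG2) of -2.16, -1.02, -1.74 and -0.99 on the log2 scale. The mean difference was -1.48 ± 0.57 (SD, n = 4, exact sign-flip permutation p = 0.125, the smallest possible, adjusted p = 0.312 over 5 pairs).

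The other genes of these Golgi steps also had means below 0. IPT1 was 1.81-fold lower, with log2 ratios of -0.76, -1.25, -0.70 and -0.71 and a mean of -0.85 ± 0.26 (SD, n = 4, limma adjusted p = 0.0205). AUR1, named after its values were seen, had -1.54, -0.34, -0.97 and -0.15, lower on the arrays with bre1 in Cy3, and a mean of -0.75 ± 0.63 (SD, n = 4, limma adjusted p = 0.0696). CSH1 and KEI1 lacked a value on array 3 and were not tested, with means of -0.44 and -0.37 over 3 arrays. The calls of SCS7 and IPT1 were both lost without array 1 (adjusted p = 0.108 and 0.064) and without array 2 (adjusted p = 0.137 and 0.101).

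**Figure D2:**
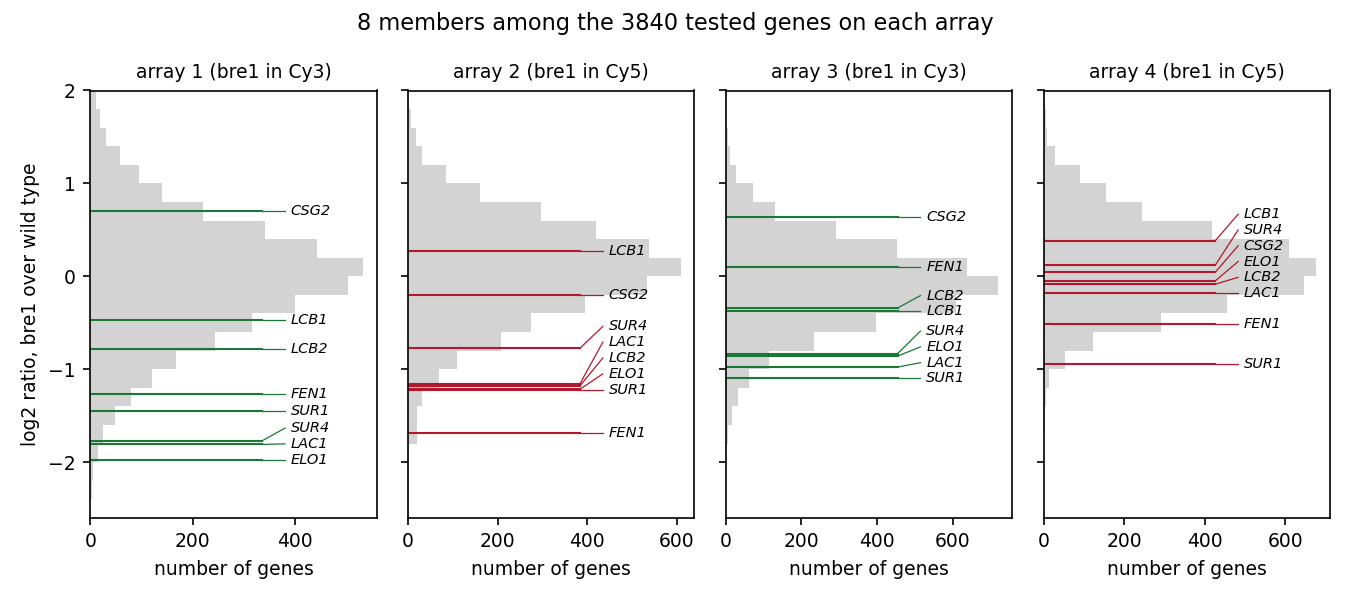
Number of genes (x axis) by log2 ratio of bre1 over wild type (y axis) on each array, in grey for the 3840 tested genes, with the 8 tested members as coloured lines at their values (green with bre1 in Cy3, red with bre1 in Cy5). Genes beyond the y axis are not drawn. Most members lie in the lower tail on arrays 1 and 2, and on array 4 SUR1 stands below the other members.

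Elo1, Fen1 and Sur4 are homologous condensing enzymes of the elongation cycle in the endoplasmic reticulum. Elo1 extends shorter fatty acids, and Fen1 and Sur4 make the very long ones that enter ceramide. FEN1 and SUR4 are also known as ELO2 and ELO3. ELO1 had log2 ratios of -1.97, -1.22, -0.86 and -0.05. It was the lowest of the 8 genes on array 1 and close to 0 on array 4. Its mean was -1.02 ± 0.80 (SD, n = 4, limma adjusted p = 0.0462), and its call was lost without array 1 (adjusted p = 0.15), without array 2 (0.16) and without array 3 (0.093).

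SUR4 had log2 ratios of -1.77, -0.78, -0.83 and 0.12. It was low on the first 3 arrays and near the middle of the genes on array 4, at the 54.1 percentile. Its mean was -0.81 ± 0.77 (SD, n = 4, limma adjusted p = 0.0799). The same mean passed with a dye term in the fit (adjusted p = 0.0272), where 23.4% of all tested genes passed. FEN1 had log2 ratios of -1.26, -1.69, 0.10 and -0.51. It was the lowest of the 8 genes on array 2, at the 0.603 percentile, and lay at the 63.6 percentile on array 3. Its mean was -0.84 ± 0.79 (SD, n = 4, limma adjusted p = 0.0774).

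The 3 elongase genes had similar means and different profiles over the arrays, and with 4 arrays the sign-flip test cannot show a difference between them. ELO1 minus SUR4 was -0.21 ± 0.17 (SD, n = 4, exact sign-flip permutation p = 0.125, adjusted p = 0.312 over 5 pairs), with ELO1 lower on all 4 arrays by more on average than the SD. ELO1 minus FEN1 was -0.18 ± 0.76 (SD, n = 4, exact p = 0.625), and FEN1 minus SUR4 was -0.03 ± 0.89 (SD, n = 4, exact p = 1). FEN1 was above SUR4 on the arrays with bre1 in Cy3 and below it on those with bre1 in Cy5. Probe sequences were not used here, so signal shared between these homologues was not tested.

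The remaining steps of the elongation cycle had means closer to 0. None of the 3 passed in limma, and none had an unadjusted p under 0.05: TSC13, the enoyl reductase gene, had a mean log2 ratio of -0.40 ± 0.67 (SD, n = 4), IFA38, the ketoreductase gene, -0.32 ± 0.66, and PHS1, the dehydratase gene, -0.26 ± 0.82. TSC13 and IFA38 had -1.20 and -1.17 on array 2 and lay above 0 on arrays 3 and 4. PHS1 had -1.11, 0.20, -0.77 and 0.64 on arrays 1 to 4, below 0 with bre1 in Cy3 and above 0 with bre1 in Cy5. Its dye difference was 1.36 (limma unadjusted p = 0.00136, adjusted p = 0.112).

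Beyond the 10 genes, 39 further genes of the pathway and of fatty acid supply were listed, and 31 of them were tested. Of these, 2 were lower (SCS7 and IPT1), 1 was higher (LCB4) and 28 did not pass, which is 3 of 31 called beside 10.7% of all tested genes. Their median of mean log2 ratios was -0.26, with 21 of 31 below 0, beside 47.4% of all tested genes. All 8 tested genes of fatty acid synthesis, desaturation and activation had means below 0, with a median of -0.28, and none passed in limma. FAT1, which encodes an acyl-CoA synthetase for very long fatty acids, lacked a value on array 4 and had the opposite sign. Its log2 ratios were 0.95, 1.60 and 0.69 on arrays 1 to 3, with a mean of 1.08 ± 0.47 (SD, n = 3). In a limma fit of genes with at least 3 values its adjusted p was 0.0298. It is named here after its values were seen.

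OLE1, the only fatty acid desaturase gene of this yeast, was the lowest of that group. Its log2 ratios were -1.62, -0.87, -1.41 and 0.11. Both arrays with bre1 in Cy3 gave lower ratios (mean -1.51) than both with bre1 in Cy5 (mean -0.38). The dye difference was 1.13 (limma unadjusted p = 0.0128, adjusted p = 0.166). The mean over the 4 arrays was -0.95 ± 0.77 (SD, n = 4, limma adjusted p = 0.0544), and without array 4 it was -1.30 with an adjusted p of 0.00506. In limma OLE1 also passed with a dye term (adjusted p = 0.0127), arrays centred (0.0403), arrays centred and scaled (0.044) and array weights (0.02). The shares of all tested genes passing there were 23.4%, 12.2%, 12.8% and 17.8%. OLE1 did not pass without array 1 (adjusted p = 0.176), without array 2 (0.151) or without array 3 (0.149). Nor did it pass with genes on at least 3 arrays (0.0596) or with a robust variance prior (0.0554). The synthase genes FAS1 and FAS2 and the carboxylase gene ACC1 had means of -0.27, -0.28 and -0.31.

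The lists of breakdown and of signalling genes had medians closer to 0. LCB4, the main kinase that phosphorylates long-chain bases, was 1.57-fold higher, with log2 ratios of 0.42, 0.81, 0.28 and 1.08. Its mean was 0.65 ± 0.37 (SD, n = 4, limma adjusted p = 0.0496), and the call was lost without any 1 of the arrays (adjusted p from 0.0625 to 0.18). The 7 tested genes of its list had a median of 0.03, and 3 of them had a mean below 0. None of the 7 tested genes of signalling and transport passed in limma, and their median was 0.13. RSB1, which exports long-chain bases, was the lowest of these, with a mean of -0.74 ± 0.57 (SD, n = 4, limma adjusted p = 0.0594). In limma RSB1 passed with a dye term (adjusted p = 0.0173), arrays centred (0.0461), arrays centred and scaled (0.0348) and array weights (0.0318). The shares of all tested genes passing there were 23.4%, 12.2%, 12.8% and 17.8%. It passed without array 4 (adjusted p = 0.0211), but not without array 1 (0.247), array 2 (0.138) or array 3 (0.134). Nor did RSB1 pass with genes on at least 3 arrays (0.0662) or with a robust variance prior (0.0602).

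**Figure D3:**
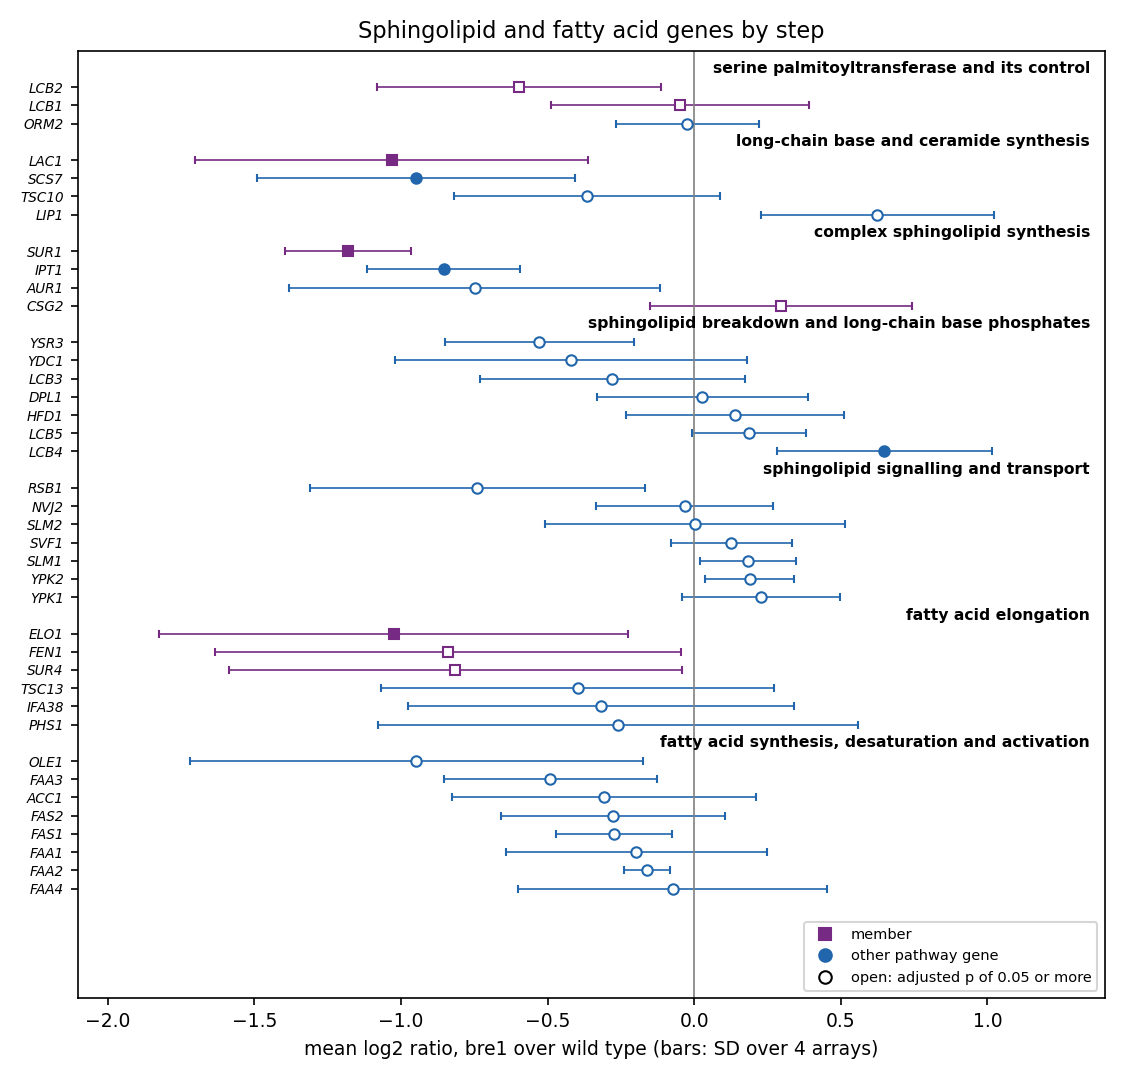
Mean log2 ratio of bre1 over wild type (x axis) for each tested gene of the pathway (y axis), grouped by step, with bars for the SD over 4 arrays. Purple squares are the 8 tested members and blue circles the 31 other genes, filled where the adjusted p was under 0.05 and open otherwise; filled symbols lie below 0 except for LCB4.

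The difference between the dye orientations does not enter the mean over arrays, but the values of the single arrays were also known when the genes were chosen, so it too is a description. In a limma fit with a dye term, none of the 8 genes passed for a difference between arrays with bre1 in Cy5 and in Cy3, beside 0.104% of all tested genes. At an unadjusted p under 0.05 in that limma fit there were 3 of 8, LCB1, CSG2 and SUR4, beside 19.1% of all tested genes, with adjusted p of 0.176, 0.181 and 0.25. LCB1 and SUR4 were higher with bre1 in Cy5, by 0.76 and 0.97 on the log2 scale, and CSG2 fell by 0.75 there. SUR1 had the means -1.28 with bre1 in Cy3 and -1.08 with bre1 in Cy5, a difference of 0.19 with a 95% interval from -0.43 to 0.82. LAC1 had -1.39 and -0.67, and ELO1 -1.42 and -0.63. LCB2 had -0.56 and -0.63.

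**Figure D4:**
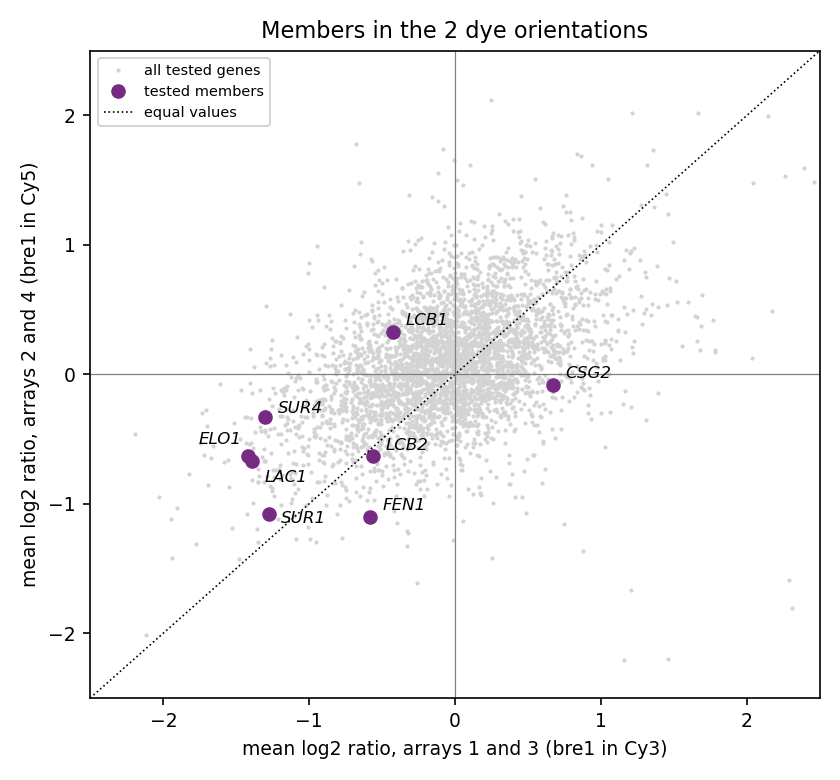
Mean log2 ratio on arrays 2 and 4, with bre1 in Cy5 (y axis), against that on arrays 1 and 3, with bre1 in Cy3 (x axis); grey points are all tested genes but 1 that lies outside the axes, purple points are the 8 tested members, and the dotted line marks equal values. SUR1 and LCB2 lie near the line, while LCB1 and CSG2 have opposite signs in the 2 orientations.

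The level of the whole group also differed between arrays of the same dye orientation. The median of the 8 genes was -1.36, -1.17, -0.60 and -0.07 on arrays 1 to 4, where the median of all tested genes was -0.01, 0.09, -0.08 and 0.10. Arrays 1 and 2 thus gave lower medians than arrays 3 and 4. The ratios spread over genes with an SD of 0.67, 0.57, 0.49 and 0.49 on these arrays. Over all tested genes the Pearson correlation was 0.65 between arrays 1 and 2, 0.75 between arrays 1 and 3, and 0.31 between arrays 2 and 3. Array 4 had correlations of 0.24, 0.54 and 0.20 with arrays 1, 2 and 3. The part of these differences in spread and correlation in the result was not tested.

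Of the 8 genes, 4 were below 0 on all 4 arrays (SUR1, LAC1, ELO1 and LCB2), beside 16.6% of all tested genes. Means below -1 were found for 3 of 8, beside 1.43% of all tested genes. These shares describe genes that were chosen with the same ratios in view. LAC1 and ELO1 had the most similar profiles among the 8, with a Euclidean distance of 0.25 over the 4 log2 ratios, and SUR4 was next, at 0.51 from LAC1 and 0.52 from ELO1.

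Among 3801 tested genes outside the pathway lists, the 3 whose 4 log2 ratios lay closest to those of SUR1 were YHL050C, FRE2 and YRF1-5, at Euclidean distances of 0.26, 0.34 and 0.36. FRE2 is a ferric reductase gene and YRF1-5 a helicase gene of the telomeric repeats, whose copies are near-identical and may share probe signal. YHL050C had log2 ratios of -1.42, -1.01, -1.09 and -0.80, FRE2 had -1.15, -1.22, -1.10 and -0.78, and YRF1-5 had -1.13, -1.13, -1.08 and -1.06.

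The 10 genes lie on 9 chromosomes. The nearest protein-coding genes on both sides of the 8 tested members numbered 16, of which 12 were tested. None of the 12 passed in limma in either direction, beside 10.7% of all tested genes, and 12 genes are too few to tell these shares apart. Their median of mean log2 ratios was 0.11. PDR12, the transporter gene next to SUR1, had a mean of 0.17, and CAP1, next to LAC1, 0.59. UBP12 and CDC6, on the sides of ELO1, had -0.09 and -0.11. PRC1, next to LCB1, had -0.54, SCO1, next to CSG2, 0.54, and ROM2, next to SUR4, -0.41. The 8 members are 933 to 1686 bp long, and the 1418 tested genes of that length range had a median log2 ratio of -0.01, with 5.01% called lower.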

How the data were processed

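The authors deposited log ratios of the 2 channels for each reading frame on each array, which were taken here as log2 of bre1 over wild type. None of the sources used here gives the authors' background correction, normalization, spot filter, log base or direction. Ratios normalized within each array show change relative to the other genes. Of 5500 frames, 3840 had values on all 4 arrays and were tested. Names came from a gene table of assembly R64, which matched 5470 frames. The fit used R 4.3.3 and limma 3.58.1: lmFit with an intercept, eBayes, a two-sided test against 0, Benjamini-Hochberg adjustment over all tested genes and a threshold of 0.05. A second fit added the dye. Both were tested on simulated data with independent noise for each gene and array, so shared differences between arrays were not covered. Scanner intensities were not analysed here, so dim spots could not be filtered. Precision is limited by having 4 arrays. Promoter motifs had been planned and were not run, since no sequence was used here.

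The members, lists, tests and alternatives were chosen with earlier results of these data known. The genes named are the 10 members, BRE1, listed pathway genes past the threshold or, for lists with none, the gene with the smallest p, and the 3 genes nearest to the member with the smallest p. Any other gene was chosen after its values were seen, among them IFA38, PHS1, TSC10, CSH1, KEI1, FAS1, FAS2, ACC1 and the neighbouring genes. Alternatives were leaving out each array, a dye term, genes with 3 or more arrays, median centring, scaling, array weights, a robust variance prior and turning the arrays with bre1 in Cy3.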

Additional observations from a re-analysis of the deposited data

Results flagged for a closer look

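IPT1 had 1 array far from the others. Its log2 ratio was -1.25 on array 2 and between -0.76 and -0.70 on arrays 1, 3 and 4, and the gap took a share of 0.9 of the whole range, above the critical value of 0.829 for 4 values. Of 16 sets of 4 values examined this was the only one, and chance gives about 1 in 20. Without array 2 the mean of IPT1 was -0.72 with a limma adjusted p of 0.101.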

How the results depend on the processing

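Leaving out 1 array at a time gave 0 to 6 members called (3 with all arrays), 0 to 8 other pathway genes called (3 with all arrays) and a member median between -1.04 and -0.62. The number of all tested genes called moved with them, from 410 with all arrays to 54, 0, 187 and 677 without arrays 1 to 4. Without array 2 no gene of the table passed in limma and 815 had an unadjusted p under 0.05, among them 4 members and 8 other pathway genes. Fewer arrays also lower the degrees of freedom and leave the dye orientations unequal. With array weights 6 members and 9 other pathway genes were called, beside 17.8% of all tested genes. With a dye term the counts were 4 (SUR4 was added) and 9, beside 23.4%. The pathway count was 5 with arrays centred on the median and 8 with arrays centred and scaled, beside 12.2% and 12.8%. The cause was not tested. The member median stayed below 0 under each of these settings.

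Turning the arrays with bre1 in Cy3 called 0 members, 0 other pathway genes and 0 genes of the table in limma, where 208 genes, 1 member and 1 other pathway gene had an unadjusted p under 0.05. It gave a member median of 0.23 and turned the sign of LAC1 (0.36), ELO1 (0.39), SUR4 (0.49), SUR1 (0.10), CSG2 (-0.38), LCB1 (0.38), ORM2 (0.21), RSB1 (0.41) and OLE1 (0.57), as its construction takes the dye difference for the strain difference. Leaving out single arrays moved the mean log2 ratio of LCB1 between -0.19 and 0.094 and that of ORM2 between -0.11 and 0.056. LCB4 lost its call with genes on at least 3 arrays (adjusted p = 0.0565) and with a robust variance prior (0.0511). The number of members with a dye difference was 0 under all 3 settings run, with 3 at an unadjusted p under 0.05 in the limma fit reported. Each ratio already compares bre1 with wild type on the same array, and no further pairing of the arrays was used. Signal over background was not analysed, so it is not known which spots were dim.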
